A study of Saccharomyces cerevisiae with 26 samples.

Results

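The 8 genes described here encode the transcription factors that switch budding yeast between sugar, other carbon sources and fatty acids: ADR1, CAT8, SIP4, RDS2, HAP4, OAF1, PIP2 and MIG1. They were chosen by name, as the rows of the deposited RNA table with those gene names, and all 8 were found among its 6008 genes. RNA was sequenced from wild-type CEN.PK yeast and from the same background with TAF14[W81A], both in continuous culture, where oxygen use rises and falls in a metabolic cycle. TAF14 is a shared subunit of several transcription and chromatin complexes, and the W81A change lies in the YEATS domain with which it binds acylated histone lysines. The labels place time points 1 and 2 early and late in the oxidative phase (OX), 3 and 4 early and late in the reductive building phase (RB), and 5 in the reductive charging phase (RC). Each genotype had 2 libraries at each of the 5 time points, 20 RNA libraries in 10 groups. The other 6 of the 26 samples were ChIP libraries of time points 3 and 4, of which H3K9ac (acetylated lysine 9 of histone H3) is used here, with 1 library a time point.

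Yeast that has glucose represses genes for other carbon sources, and the kinase Snf1 relieves that repression when glucose runs out. Mig1 is a zinc-finger repressor that leaves the nucleus when Snf1 is active. Cat8, Sip4 and Rds2 are zinc-cluster proteins that act on genes of gluconeogenesis and the glyoxylate cycle through carbon source response elements, and Adr1 activates genes for ethanol, glycerol and fatty acid use. Hap4 is the activating subunit of the Hap2/3/4/5 complex of respiratory genes. Oaf1 and Pip2 form a heterodimer that binds oleate response elements of the genes of fatty acid oxidation in peroxisomes, and Oaf1 is the subunit that senses the fatty acid.

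Values are scaled reads, which are the reads of a gene in a library, recovered from the deposited level and put on the authors' scaling between libraries. They are not divided by gene length. For 5437 genes, these 8 included, the reads had 1 solution everywhere, and these summed to between 2018663 and 3743527 in a library. Paired libraries were least alike in the wild-type pair of time point 1 (Pearson r across genes 0.986, median SD 0.122 in log2 units). The mutant pair of that time point had a median SD of 0.0921, and the other 8 pairs had 0.0542 to 0.0726. At wild-type time point 1, library 1 was below library 2 for 7 of the 8 genes, with OAF1 the exception. Several values of time point 1 are therefore also given without a library below. A group with 1 library left adds nothing to the spread. A p-value from such a fit therefore measures the spread of the other groups. For such fits the shares of all genes that passed are not given. Their shifts in count cannot be read as particular to the 8 genes. A point mutation does not remove a transcript, so the TAF14 level checks no label: it ran from 484 to 894 scaled reads in the wild-type libraries and from 583 to 1056 in the mutant. Nothing states that the 2 libraries of a group came from separate cultures, so p-values measure the spread between these libraries, which may be technical.

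The first comparison asked how these genes moved through the cycle in wild type. All 8 changed over the 5 time points at a Benjamini-Hochberg adjusted p under 0.05 in limma, where 93.7% of the 5956 genes tested did. ADR1, CAT8, SIP4 and HAP4 were lowest at time point 1 and highest at time point 3, whereas OAF1 and MIG1 were highest at time point 5 and PIP2 at time point 4. The range between the lowest and highest group of a gene was 12.5-fold for CAT8 and 12.2-fold for SIP4 on the authors' deposited levels. It was 7.31-fold for ADR1, 5.66-fold for HAP4, 4.85-fold for PIP2 and 2.39-fold for MIG1, and it was smallest for OAF1 (1.73-fold) and RDS2 (1.27-fold). The median range over all genes was 2.52-fold. In RNA of whole cultures, a change in the share of cells with a transcript and a change in RNA per cell cannot be told apart.

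**Figure D1:**
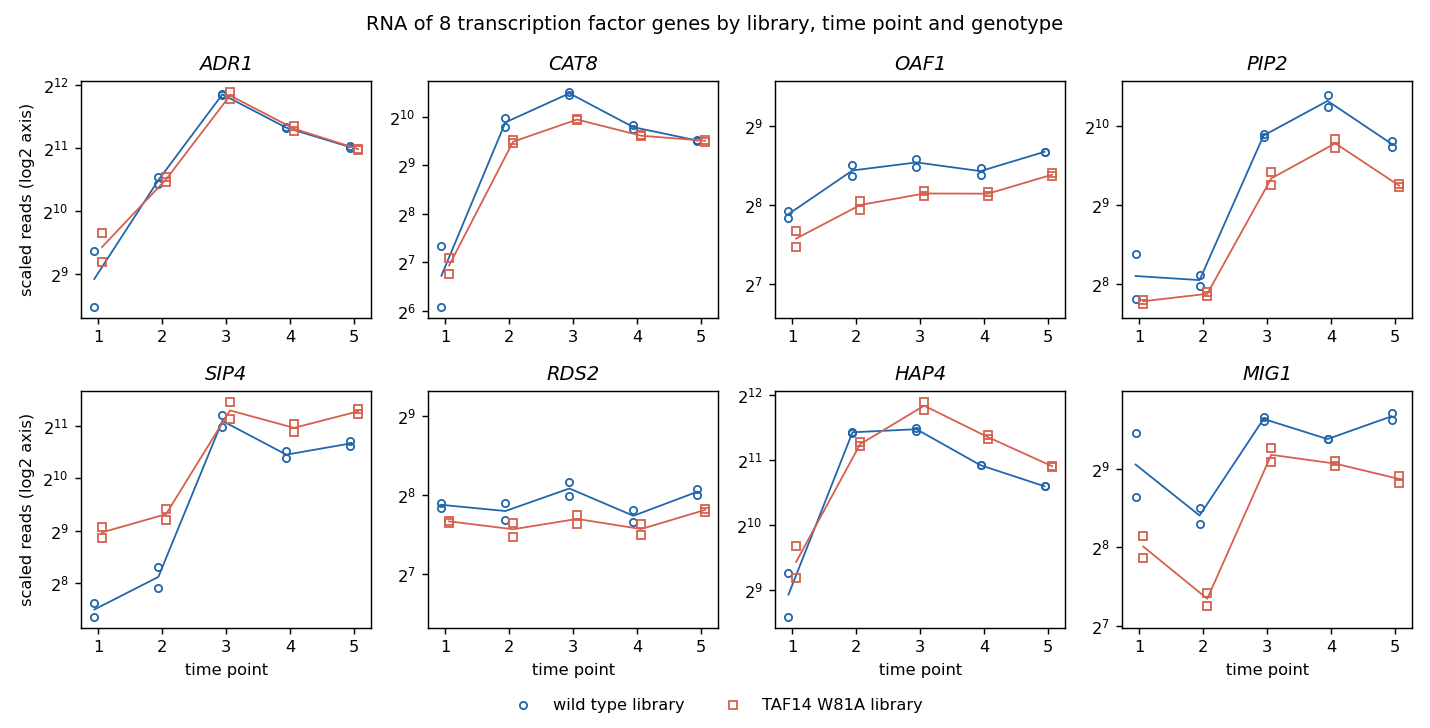
Scaled reads (log2 axis) of each gene at the 5 time points. Each open symbol is 1 library, circles for wild type and squares for TAF14[W81A], and lines join the group means of the log2 values. CAT8 and HAP4 climb between time points 1 and 2, whereas PIP2 and SIP4 climb between 2 and 3, and the mutant SIP4 libraries lie above wild type at time points 1 and 2.

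CAT8 (YMR280C, chromosome XIII, 827028 to 831329, minus strand of RefSeq R64, the assembly of sacCer3) encodes the activator that turns on gluconeogenic genes. In wild type it had 67.6 and 161 scaled reads at time point 1, 879 and 1009 at time point 2, 1395 and 1459 at time point 3, 902 and 857 at time point 4, and 722 and 729.8 at time point 5. Time point 1 lay far below all others, although its 2 libraries were far apart. The rise from time point 1 to 2 was 3.16 ± 0.24 (log2 change ± SE, n = 2 libraries a group, limma adjusted p = 2.81e-09). With a library left out this rise ran from 2.54 to 3.78.

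SIP4 (YJL089W, chromosome X, 265926 to 268415, plus strand), a zinc-cluster activator that interacts with the Snf1 complex, came up later. It had 164 and 197 scaled reads at time point 1 and 241 and 318 at time point 2, then 2021 and 2365 at time point 3, 1336 and 1464 at time point 4, and 1573 and 1671 at time point 5. The highest OX library, at 318 scaled reads, lay far below the lowest later one, at 1336. The change from time point 2 to 3 was 2.98 ± 0.14 (adjusted p = 1.55e-11) and that from 5 to 1 was -3.17 ± 0.14 (adjusted p = 1.75e-12).

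RDS2 (YPL133C, chromosome XVI, 299888 to 301228, minus strand), a regulator of gluconeogenic genes and of drug sensitivity, was nearly flat. Its 10 wild-type libraries ran from 201 to 286 scaled reads, and the highest pair was at time point 3 (286 and 254). Its F test over the cycle had an adjusted p of 0.0157, which rose to 0.0587 without library 1 of wild-type time point 3 and to 0.0551 without library 1 of time point 4.

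ADR1 (YDR216W, chromosome IV, 895035 to 899006, plus strand), the activator of the ethanol-using alcohol dehydrogenase gene ADH2, rose in both steps. It had 356 and 655 scaled reads at time point 1, 1377 and 1495 at time point 2, 3666 and 3722 at time point 3, 2578 and 2539 at time point 4, and 2094 and 2036 at time point 5. No neighbouring groups overlapped, where 73.4% to 87.7% of genes did not overlap in a single step. Its change was 1.57 ± 0.18 from time point 1 to 2 (adjusted p = 7.91e-07) and 1.36 ± 0.18 from 2 to 3 (adjusted p = 6.12e-06). With a library left out, the change from 1 to 2 ran from 1.13 to 2.01.

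HAP4 (YKL109W, chromosome XI, 232227 to 233891, plus strand) reached its plateau within OX. It had 384 and 616 scaled reads at time point 1, 2758 and 2724 at time point 2, 2877 and 2787 at time point 3, 1925 and 1934 at time point 4, and 1544 and 1541 at time point 5. Its change was 2.49 ± 0.16 from time point 1 to 2 (adjusted p = 3.63e-10), and from 2 to 3 it was 0.05 ± 0.16 (adjusted p = 0.807), a value that becomes -0.036 with upper-quartile scaling of the libraries.

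The oleate regulators differed from each other in range. PIP2 (YOR363C, chromosome XV, 1020222 to 1023212, minus strand) had 224 and 331 scaled reads at time point 1, 249 and 277 at time point 2, 930.2 and 949 at time point 3, 1348 and 1205 at time point 4, and 854 and 893 at time point 5. The 2 OX groups overlapped and all later libraries were above them. The change of PIP2 from 1 to 2 turned with the library of time point 1: it was -0.33 without library 1 and 0.23 without library 2. The change from time point 2 to 3 was 1.83 ± 0.13 (adjusted p = 1.46e-09), and PIP2 was the only one of the 8 genes to be highest at time point 4 in wild type. OAF1 (YAL051W, chromosome I, 48564 to 51707, plus strand) had 243 and 229 scaled reads at time point 1, 331 and 363 at time point 2, 385 and 359.8 at time point 3, 356 and 333 at time point 4, and 409 and 408 at time point 5. Only time points 1 and 5 stood clear of the rest, and the change from 1 to 2 was 0.55 ± 0.08 (adjusted p = 1.52e-05).

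The repressor gene MIG1 (YGL035C, chromosome VII, 431548 to 433062, minus strand) was lowest late in OX. It had 399.5 and 702 scaled reads at time point 1, 362 and 315 at time point 2, 780.3 and 803 at time point 3, 662 and 664 at time point 4, and 835 and 786 at time point 5. Both libraries of time point 2 lay below all others. MIG1 rose by 1.23 ± 0.17 from time point 2 to 3 (adjusted p = 9.17e-06). Its change from 1 to 2 was -0.65 ± 0.17 (adjusted p = 0.00276), but it was -0.24 (adjusted p = 0.0663) without library 2 of wild-type time point 1, and its fall from 5 to 1 (-0.61 ± 0.17, adjusted p = 0.00379) was -0.21 (adjusted p = 0.112) without library 1.

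Counted by step in wild type, 6 of the 8 genes changed from time point 1 to 2, where 75% of all genes did. ADR1, CAT8, HAP4, OAF1 and SIP4 rose and MIG1 fell. From 2 to 3, where 66.3% of all genes were called, ADR1, CAT8, MIG1, PIP2, RDS2 and SIP4 rose and none fell, against 33.5% of all genes called higher. With upper-quartile scaling CAT8 (0.52, adjusted p = 0.0654) and RDS2 (0.20, adjusted p = 0.103) lost that call. It was also lost without any 1 of the 4 libraries compared for CAT8 (adjusted p = 0.0558 to 0.166), and for RDS2 without library 2 of time point 2 (adjusted p = 0.21) or library 1 of time point 3 (adjusted p = 0.18). From 5 to 1, where 79.7% of all genes were called, 7 genes fell, against 38.6% of all genes called lower, and RDS2 at -0.17 ± 0.10 did not pass (adjusted p = 0.145). It passed with upper-quartile scaling at -0.36 (adjusted p = 0.00468). That scaling shifted the median of all genes by 0.236 for the step from 1 to 2 and by -0.198 for the step from 5 to 1, and the calls of the other genes in those steps kept their direction under it.

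The steps within RB and into RC were small, and most of their calls depended on single libraries. The SIP4 call from time point 3 to 4 held with each library left out in turn (-0.76 to -0.53). So did the PIP2 call from 4 to 5 (-0.63 to -0.46). From time point 3 to 4, where 43.3% of all genes were called, PIP2 rose by 0.44 ± 0.13 (adjusted p = 0.0096) and ADR1, CAT8, HAP4, RDS2 and SIP4 fell by 0.35 to 0.70. Without library 1 of wild-type time point 3 the count went from 6 to 1 and without library 1 of time point 4 to 2. From 4 to 5, where 61.4% of all genes were called, OAF1 (0.25 ± 0.08) and RDS2 (0.31 ± 0.10) rose and PIP2 fell by 0.54 ± 0.13. This count of 3 became 7 without either library of wild-type time point 1, which enters the shared estimate of the spread, and 1 without library 2 of time point 5.

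Compared per length, HAP4 had the highest level of the 8 genes at time points 2 to 5 in both genotypes. At wild-type time point 3 its mean was 1701 scaled reads per kb, followed by ADR1 at 929.9 and SIP4 at 881, whose ranges overlapped. MIG1 at 523, CAT8 at 332, PIP2 at 314, RDS2 at 201 and OAF1 at 118 followed without overlap between neighbours. At wild-type time point 1, MIG1 (364 scaled reads per kb) and HAP4 (300.2) overlapped at the top, and CAT8 (26.6) was lowest. Per length, SIP4 was seventh of the 8 in wild type at time point 1, where its range overlapped those of OAF1 and PIP2. At that time point in the mutant it was second (201 scaled reads per kb), and its range overlapped that of ADR1.

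**Figure D2:**
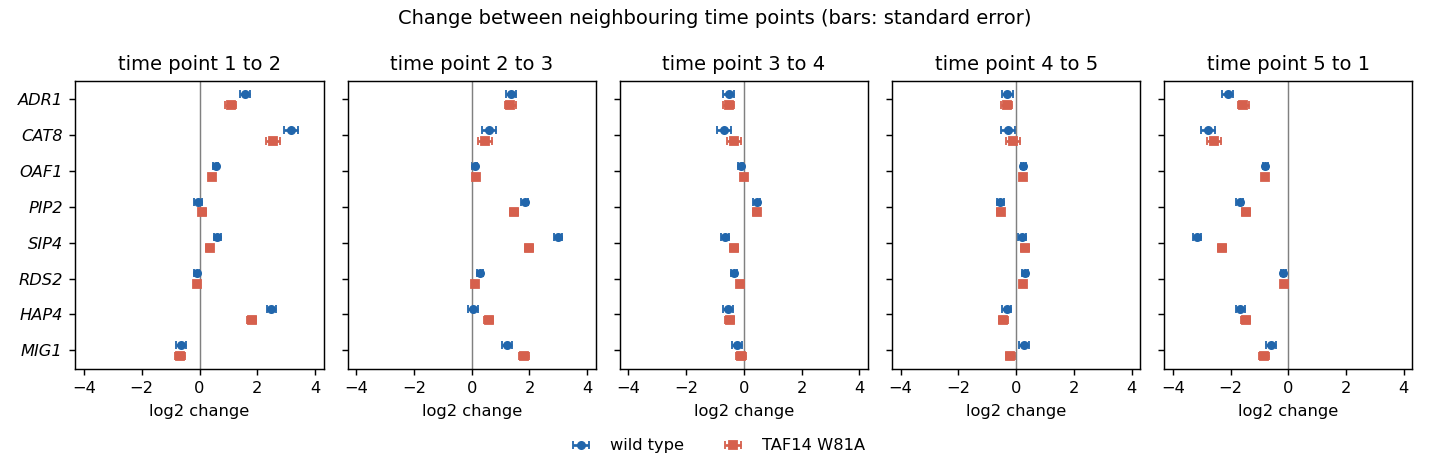
Log2 change between neighbouring time points (the last panel closes the cycle from 5 to 1), circles for wild type and squares for TAF14[W81A], with bars of 1 standard error. SIP4 rises less in the mutant from time point 2 to 3 (1.98 against 2.98) and falls less from 5 to 1 (-2.31 against -3.17). From 1 to 2 HAP4 (1.81 against 2.49), CAT8 (2.55 against 3.16) and ADR1 (1.08 against 1.57) rise less in the mutant. Those differences were not called.

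The second comparison set the mutant against wild type. As a mean over the cycle, SIP4 and HAP4 were higher in TAF14[W81A] and MIG1, PIP2, OAF1 and RDS2 were lower, so 6 of 8 were called, where 69.8% of all genes were. ADR1 (0.09 ± 0.08, adjusted p = 0.336) and CAT8 (-0.18 ± 0.11, adjusted p = 0.137) did not pass. Without library 2 of wild-type time point 1 the ADR1 mean was 0.18. In the mutant 7 of the 8 genes changed over the cycle, where 91.6% of all genes did, and RDS2 did not (adjusted p = 0.154). With upper-quartile scaling RDS2 passed too (adjusted p = 0.0371).

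By step, the mutant counts were 6 from time point 1 to 2 (72.6% of all genes), 5 from 2 to 3 (59.5%), 3 from 3 to 4 (23.4%), 3 from 4 to 5 (45.1%) and 7 from 5 to 1 (79%). From 1 to 2 CAT8 (2.55 ± 0.24), HAP4 (1.81 ± 0.16), ADR1, OAF1 and SIP4 rose and MIG1 fell by 0.66 ± 0.17. The SIP4 call there (0.35 ± 0.14, adjusted p = 0.0308) was lost without library 2 of mutant time point 1 (0.25, adjusted p = 0.205) or library 1 of mutant time point 2 (0.25, adjusted p = 0.209). From 2 to 3 SIP4, MIG1 (1.83 ± 0.17), PIP2 (1.46 ± 0.13), ADR1 (1.33 ± 0.18) and HAP4 (0.59 ± 0.16, adjusted p = 0.00418) rose. CAT8 (0.46 ± 0.24, adjusted p = 0.107) and RDS2 (0.13 ± 0.10, adjusted p = 0.285) did not pass in that step, although CAT8 did without either library of wild-type time point 1 (adjusted p = 0.000131 and 0.000137). The difference from wild type in that step was 0.60 ± 0.24 for MIG1 (adjusted p = 0.0782) and 0.54 ± 0.22 for HAP4 (adjusted p = 0.083). From 3 to 4 PIP2 rose by 0.45 ± 0.13, and ADR1 and HAP4 fell by 0.53 ± 0.18 and 0.48 ± 0.16. The ADR1 call (adjusted p = 0.0491) was lost without any 1 of 16 of the 20 libraries (adjusted p = 0.0608 to 0.218). From 4 to 5 OAF1 rose by 0.24 ± 0.08, and PIP2 and HAP4 fell by 0.54 ± 0.13 and 0.45 ± 0.16. With upper-quartile scaling SIP4 and RDS2 also passed from 4 to 5 (0.38 and 0.31, adjusted p = 0.0279 and 0.0234) and HAP4 did not (-0.38, adjusted p = 0.0631). From 5 to 1 every gene but RDS2 fell, and the change of CAT8 was -2.57 ± 0.24. RDS2 passed there with upper-quartile scaling (-0.34, adjusted p = 0.007). The count of 3 for time points 3 to 4 became 0 without library 1 of mutant time point 3 or of mutant time point 4, 1 without library 2 of mutant time point 4, and 5 without either library of wild-type time point 1. That for 4 to 5 became 1 without any 1 of the 4 mutant libraries it compares, and 5 without either library of wild-type time point 1.

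SIP4 showed the largest mean difference of the 8 genes in size, near that of MIG1. With a library left out the means ran from 0.76 to 0.84 for SIP4 and from -0.81 to -0.65 for MIG1. These ranges overlap in size, and MIG1 differed more at time points 3 and 5. In the mutant SIP4 had 536 and 466 scaled reads at time point 1, and 681 and 594 at time point 2. It had 2814 and 2242 at time point 3, 2098 and 1894 at time point 4, and 2561 and 2401 at time point 5. At time points 1 to 5, the genotypes did not overlap for 65.3%, 77.1%, 74.3%, 76.3% and 71.3% of genes with single solutions. For SIP4 all mutant libraries were above the wild-type ones at time points 1, 2, 4 and 5, and the groups overlapped at time point 3. The difference, mutant minus wild type, was 1.47 ± 0.14 at time point 1 (adjusted p = 6.58e-07), 1.20 ± 0.14 at time point 2 (adjusted p = 5.31e-06) and 0.20 ± 0.14 at time point 3 (adjusted p = 0.251). It was 0.51 ± 0.14 at time point 4 (adjusted p = 0.00536), 0.61 ± 0.14 at time point 5 (adjusted p = 0.00313) and 0.80 ± 0.06 as a mean over the cycle (adjusted p = 9.47e-09). The call at time point 4 was lost without library 1 of wild type (0.44, adjusted p = 0.0512) or of the mutant (0.44, adjusted p = 0.0556) at that time point.

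The genotype difference of SIP4 also varied between time points (F test of the interaction, adjusted p = 0.000251). Among the 8 genes MIG1 was the other gene called (adjusted p = 0.047), against 47.9% of all genes. From time point 2 to 3 SIP4 changed by 2.98 ± 0.14 in wild type and by 1.98 ± 0.14 in the mutant, a difference of -0.997 ± 0.19 (adjusted p = 0.0011). From 5 to 1 it changed by -3.17 ± 0.14 in wild type and by -2.31 ± 0.14 in the mutant, a difference of 0.86 ± 0.19 (adjusted p = 0.00729). No other of the 8 genes was called in either test, where 27.9% and 13.8% of all genes were. For SIP4 both calls held with each library left out in turn, at -1.20 to -0.80 and 0.73 to 0.99. The other counts moved with wild-type time point 1: without its library 1 or 2, 4 genes were called from 2 to 3, and 2 or 5 from 5 to 1. From 1 to 2 none of the 8 was called (5.02% of all genes), but at time point 1 the removal of wild-type library 1 gave 1, as did that of mutant library 2, and the removal of wild-type library 2 gave 3. From 3 to 4 none was called (4.89% of all genes), and from 4 to 5 none (22.3% of all genes), where 1 was called without either library of wild-type time point 1. The unadjusted p was under 0.05 for 1 of the 8 genes from 1 to 2, none from 3 to 4 and none from 4 to 5. That gene was HAP4, with a difference of -0.68 ± 0.22 (adjusted p = 0.0935). For CAT8 it was -0.61 ± 0.33 (adjusted p = 0.34) and for ADR1 -0.49 ± 0.26 (adjusted p = 0.322). Only PIP2 had a positive value in that step (0.15 ± 0.18).

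HAP4 was the other gene called higher in the mutant as a mean over the cycle, at 0.28 ± 0.07 (adjusted p = 0.002). The mutant libraries had 819 and 580.2 scaled reads at time point 1, 2470.0 and 2361 at time point 2, 3790.1 and 3489.9 at time point 3, 2662 and 2539 at time point 4, and 1916 and 1902 at time point 5. They were above wild type at time points 3, 4 and 5, below it at time point 2 and overlapped it at time point 1. At single time points from 2 to 5, 71.3% to 77.1% of genes had no overlap in either direction. The difference was 0.50 ± 0.16 at time point 1 (adjusted p = 0.0155), where it fell to 0.16 (adjusted p = 0.291) without library 1 of wild type and to 0.25 (adjusted p = 0.235) without library 1 of the mutant. It was 0.84 and 0.75 without library 2 of wild type and of the mutant. It was -0.18 ± 0.16 at time point 2 (adjusted p = 0.363), 0.36 ± 0.16 at time point 3 (adjusted p = 0.0764), 0.43 ± 0.16 at time point 4 (adjusted p = 0.0347) and 0.31 ± 0.16 at time point 5 (adjusted p = 0.158). The call at time point 4 was lost without any 1 of its 4 libraries (adjusted p = 0.0801 to 0.138), and those at time points 3 and 5 were gained without either library of wild-type time point 1 (adjusted p = 0.0055 and 0.0211 without library 1).

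MIG1 was lower in the mutant throughout. The mutant libraries had 283 and 234 scaled reads at time point 1, 171 and 153 at time point 2, 541 and 615 at time point 3, 545 and 523 at time point 4, and 452 and 481 at time point 5. No mutant library reached the wild-type range at any of the 5 time points. At a single time point 65.3% to 77.1% of genes had no overlap in either direction. The share of genes clear at all 5 is not given. The difference was -1.04 ± 0.17 at time point 1 (adjusted p = 0.000137), -1.06 ± 0.17 at time point 2 (adjusted p = 0.000127) and -0.80 ± 0.17 at time point 5 (adjusted p = 0.00262). At time point 1 it was between -1.45 and -0.63 with a library left out, the former without library 1 and the latter without library 2 of wild type at that time point. It was -0.46 ± 0.17 at time point 3 (adjusted p = 0.0419) and -0.31 ± 0.17 at time point 4 (adjusted p = 0.152), where it passed without either library of wild-type time point 1 (adjusted p = 0.00889 and 0.00914). The call at time point 3 was lost without any 1 of the 4 libraries of that time point (adjusted p = 0.064 to 0.208), without any 1 of 10 others (adjusted p = 0.0504 to 0.0525) and with upper-quartile scaling (adjusted p = 0.0625). Averaged over the cycle MIG1 differed by -0.73 ± 0.08 (adjusted p = 3.51e-07), and its interaction call was lost without any 1 of 17 of the 20 libraries (adjusted p = 0.0536 to 0.105).

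**Figure D3:**
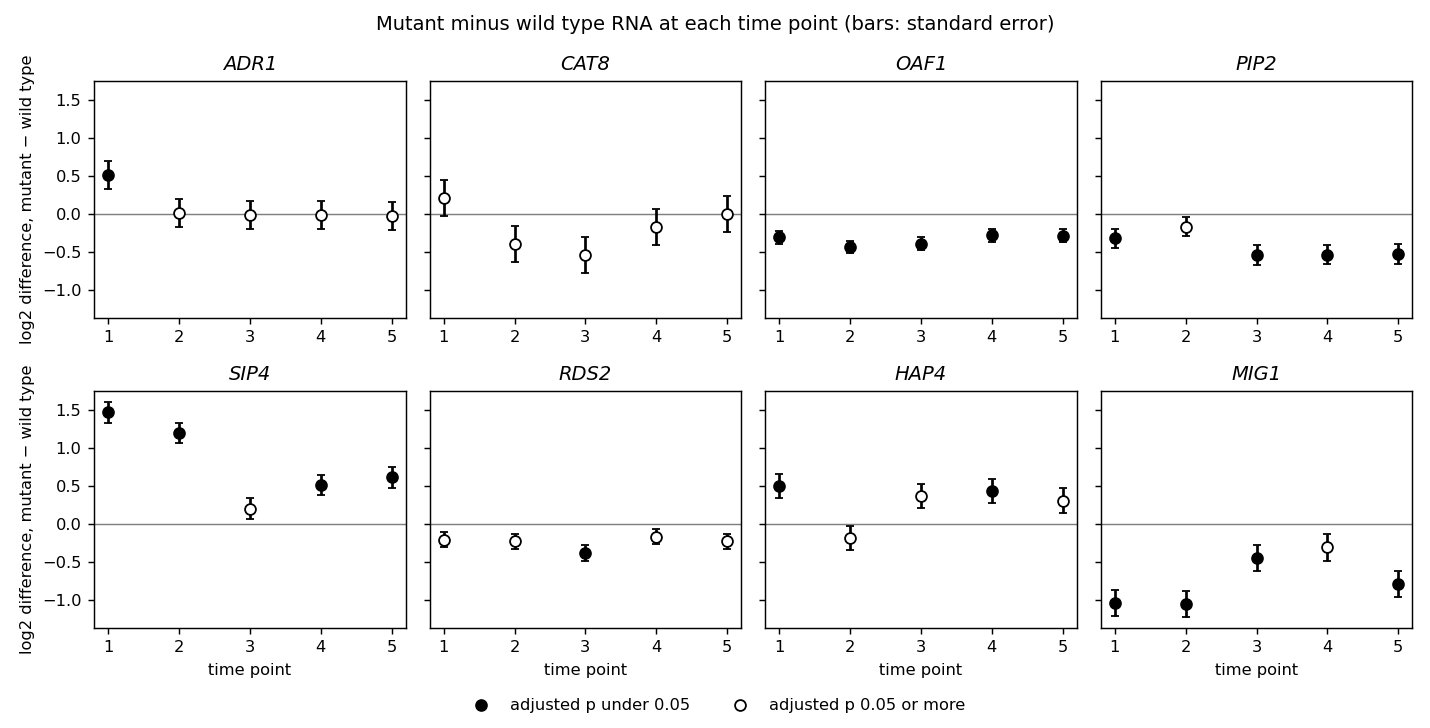
Log2 difference of TAF14[W81A] minus wild type at each time point, with bars of 1 standard error and filled symbols for an adjusted p under 0.05. SIP4 is highest at time points 1 and 2 (1.47 and 1.20), MIG1 is lowest there (-1.04 and -1.06), and OAF1 lies between -0.44 and -0.29 throughout.

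Both oleate regulators were lower in the mutant. PIP2 had 214 and 222 scaled reads at time point 1, 237 and 229 at time point 2, 607 and 684 at time point 3, 909.6 and 846 at time point 4, and 597 and 612 at time point 5. Every mutant library was below the wild-type libraries of its time point, where 65.3% to 77.1% of genes had no overlap at a single time point, in either direction. The difference was -0.54 ± 0.13 at time points 3 and 4 (adjusted p = 0.00226 and 0.00209) and -0.53 ± 0.13 at time point 5 (adjusted p = 0.00469), with -0.17 ± 0.13 at time point 2 (adjusted p = 0.271). At time point 1 it was -0.32 ± 0.13 (adjusted p = 0.0444), with -0.039 without library 2 of wild type and -0.60 without library 1. That call was lost without any 1 of 13 libraries and with upper-quartile scaling (-0.27, adjusted p = 0.0827). Its mean over the cycle was -0.42 ± 0.06 (adjusted p = 4.99e-06).

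OAF1 had 203 and 178 scaled reads at mutant time point 1, 265 and 247 at time point 2, 289 and 277 at time point 3, 277 and 288 at time point 4, and 329.7 and 338 at time point 5. These too lay below every wild-type library of the same time point, against the same 65.3% to 77.1% of genes without overlap at a single time point. OAF1 was called at all 5 time points, with differences from -0.44 ± 0.08 at time point 2 (adjusted p = 0.0005) to -0.29 ± 0.08 at time points 4 and 5 (adjusted p = 0.0102 and 0.0161), and its mean was -0.34 ± 0.04 (adjusted p = 5.47e-07). The call at time point 1 was lost without library 2 of the mutant (-0.21, adjusted p = 0.0846). The call at time point 4 was lost without library 1 of wild type (-0.24, adjusted p = 0.0888) or of the mutant (-0.26, adjusted p = 0.0684), and at time point 5 without any 1 of its 4 libraries (adjusted p = 0.0578 to 0.0956).

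Of the remaining activators, RDS2 ran from 177 to 226 scaled reads in the 10 mutant libraries. Its mean difference was -0.25 ± 0.05 (adjusted p = 0.000161) and only time point 3 was called (-0.39 ± 0.10, adjusted p = 0.00601), a call lost on removal of wild-type library 1 (-0.30, adjusted p = 0.0723) or mutant library 2 (-0.32, adjusted p = 0.0618). At time point 2 the difference was -0.23 ± 0.10 (adjusted p = 0.0743), and it was -0.34 without library 2 of wild type.

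CAT8 had 136 and 108 scaled reads at mutant time point 1, 699 and 729.7 at time point 2, 989 and 973 at time point 3, 783 and 773 at time point 4, and 737 and 712 at time point 5. The mutant libraries were below wild type at time points 2, 3 and 4 and overlapped it at 1 and 5. At single time points from 2 to 4, 74.3% to 77.1% of genes had no overlap in either direction. The difference was 0.21 ± 0.24 at time point 1 (adjusted p = 0.481), -0.40 ± 0.24 at time point 2 (adjusted p = 0.18) and -0.54 ± 0.24 at time point 3 (adjusted p = 0.0759). Without library 1 of wild-type time point 1 the value there was -0.41 and without library 2 it was 0.83, so its sign turned with the library left out. Those 2 libraries also set the spread of CAT8: without library 1 the SE at time point 1 went from 0.24 to 0.11. The differences at time points 2 and 3 stayed at -0.40 and -0.54, and the mean was -0.31. Without time point 1 the mean was -0.28 (adjusted p = 3.57e-08).

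ADR1 had 803 and 586 scaled reads at mutant time point 1, 1492 and 1404 at time point 2, 3803 and 3501 at time point 3, 2469 and 2596 at time point 4, and 2036 and 2011 at time point 5. The genotypes overlapped at time points 1 to 4, and at time point 5 their nearest libraries were both at 2036. At time point 1 the difference was 0.51 ± 0.18 (adjusted p = 0.0323), and it was 0.07 (adjusted p = 0.674) without library 1 of wild type and 0.28 (adjusted p = 0.303) without library 1 of the mutant. It was 0.95 and 0.73 without library 2 of wild type and of the mutant. At the other 4 time points it lay between -0.03 and 0.01 with an SE of 0.18, and its sign changed with the scaling or the library left out.

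By time point, the counts of the 8 genes called were 6 at time point 1, 3 at 2, 4 at 3, 4 at 4 and 4 at 5. The shares of all genes called there were 49.2%, 47.6%, 43.5%, 47.4% and 30% in the same order. That fit used a shared spread for all groups, although the pairs of time point 1 were least alike. With weights per group the shares were 27.8%, 54.5%, 48.1%, 53.1% and 44.1%. Removal of mutant library 1 left 3 at time point 1. At time point 3 it was 2 on removal of wild-type library 1 or mutant library 2, and at time point 4 it was 1 without library 1 of either genotype.

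The authors' deposited table tests the same 5 comparisons with its own model. In the authors' deposited table SIP4 was higher at time points 1, 2, 4 and 5 (log2 fold change 1.29, 1.11, 0.50 and 0.59, adjusted p = 1.66e-08, 3.67e-14, 7.73e-08 and 4.59e-18) and MIG1 was lower at all 5 (-0.92, -0.98, -0.46, -0.32 and -0.77). The authors' deposited table also called CAT8 lower at time points 2 and 3 (-0.39 and -0.55, adjusted p = 0.000772 and 1.44e-07). HAP4 in the authors' deposited table was lower at time point 2 (-0.19, adjusted p = 0.0374) and higher at time points 3, 4 and 5 (0.33, 0.42 and 0.29). OAF1 in the authors' deposited table was called lower at time points 2 and 3 (-0.42 and -0.40, adjusted p = 0.0101 and 0.0172) and not at 1, 4 and 5 (adjusted p = 0.433, 0.116 and 0.0718). Counted over the 8 genes, the authors' deposited table called 2, 5, 6, 4 and 4 at time points 1 to 5, where it called 14.2%, 38.7%, 33.5%, 38.4% and 27.3% of the genes with an adjusted p.

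The genes that these factors are known to act on moved far more over the cycle than they differed between genotypes. From time point 2 to 3 in wild type, all 14 Adr1 targets rose, with a median of 4.59 (log2) against 0.03 over all genes, and with upper-quartile scaling 13 did, where 33.5% of all genes were called higher. Of 20 oleate-response targets of Oaf1 and Pip2, 18 rose and 1 fell (median 4.34), and of 16 targets of Cat8, Sip4 and Rds2, 14 rose and 1 fell (median 3.06). The acyl-CoA oxidase gene POX1, in both the Adr1 and the oleate lists, rose by 6.70 ± 0.41, and the carnitine acetyltransferase gene CAT2 rose by 6.36 ± 0.36. The acetate transporter gene ADY2 rose by 7.31 ± 0.33 and the acetyl-CoA synthetase gene ACS1 by 6.62 ± 0.32. In the mutant the same step called 13 of 14 Adr1 targets, 19 of 20 oleate targets and 14 of 16 Cat8, Sip4 and Rds2 targets higher, where 29.5% of all genes were.

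Hap complex targets followed another course. From time point 1 to 2 in wild type, 18 of 20 rose and 1 fell (median 1.57), where 75% of all genes were called and 34.4% were called higher. From 2 to 3, where 66.3% were called and 33.5% called higher, 1 rose and 5 fell (median -0.01), or 3 and 5 with weights per group. In that later step the cytochrome c gene CYC1 fell by 0.96 ± 0.08 and its hypoxic isoform CYC7 rose by 2.10 ± 0.27. Of 16 genes that Mig1 represses, CAT8 among them, 13 rose and 3 fell from 1 to 2 (median 1.76), and 12 rose and none fell from 2 to 3 (median 0.66), or 9 with upper-quartile scaling, against the same shares of all genes. The mitochondrial methylisocitrate lyase gene ICL2 rose by 5.93 ± 0.31 from 2 to 3 and the glucose transporter gene HXT2 by 2.63 ± 0.30.

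Between genotypes, medians of the 5 target lists ran from -0.34 to 0.17 over the time points. At time point 2 none of the Adr1 targets was called higher and 6 were lower (median -0.34), and of the Mig1-repressed genes 1 was higher and 6 lower (median -0.33), where 24% of all genes were called lower. Upper-quartile scaling left these counts as they were, and weights per group gave 3 higher and 10 lower of the Mig1-repressed genes. At time point 4 none of the 20 Hap targets was higher and 12 were lower (median -0.32), where 21.7% of all genes were called lower. With upper-quartile scaling 7 were lower and none higher (median -0.24). As a mean over the cycle, 2 of 14 Adr1 targets were higher and 7 lower in the mutant (median -0.21, against 0.03 over all genes), where 37.8% of all genes were called higher and 32% lower. For the oleate list 2 were higher and 6 lower (median -0.08), for the Cat8, Sip4 and Rds2 targets 3 and 6 (median -0.12), for the Hap targets 3 and 11 (median -0.12) and for the Mig1-repressed genes 2 and 7 (median -0.14). With upper-quartile scaling the oleate list had 4 higher and 6 lower and the Hap list 5 and 9, and without time point 1 the oleate list had 5 and 8. The largest differences among these targets were those of the malate synthase gene MLS1 (-0.97 ± 0.08), the formate dehydrogenase gene FDH1 (-0.94 ± 0.06), whose reads may be shared with its near-identical copy FDH2, the trehalose-6-phosphate synthase gene TPS1 (-0.89 ± 0.08), HXT2 (0.88 ± 0.14) and the fructose-1,6-bisphosphatase gene FBP1 (-0.87 ± 0.09). The peroxisomal thioesterase gene TES1 changed by -0.78 ± 0.07, the aldehyde dehydrogenase gene ALD4 by -0.66 ± 0.06 and the acyl-CoA synthetase gene FAA2 by -0.45 ± 0.12. Among Hap targets the largest differences were those of KGD1 (-0.49 ± 0.05), a subunit of 2-oxoglutarate dehydrogenase, and of HEM1 (-0.41 ± 0.04), the first enzyme of heme synthesis.

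For partners and upstream regulators of the 8 factors the counts stand against the same 69.8% of all genes called for the mean over the cycle. Of 14 partners and co-regulators, 5 were higher and 8 lower in the mutant (median -0.25). Among them the DNA-binding Hap subunit gene HAP2 differed by -0.72 ± 0.07 and the repressor gene RGM1 by -0.67 ± 0.08. Over the step from time point 2 to 3 in wild type, the Mig1 relative MIG3 rose by 1.25 ± 0.29 and HXK2, the hexokinase that takes part in glucose repression, fell by 1.10 ± 0.09. Of 13 genes of the Snf1 pathway, 2 were higher and 8 lower in the mutant (median -0.29), a count of 10 that is near that share, with the largest differences in SDS24 (-0.76 ± 0.10) and SDS23 (-0.62 ± 0.05). In wild type 9 of the 13 rose from 2 to 3, or 7 with upper-quartile scaling, where 33.5% of all genes were called higher. REG2, which encodes a regulatory subunit of the Glc7 phosphatase, rose by 2.37 ± 0.15 and SDS24 by 2.05 ± 0.21. The 1 that fell, named after its value was seen, was the Snf1-activating kinase gene SAK1 (-0.23 ± 0.09, adjusted p = 0.033).

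Profiles over the 10 deposited group levels grouped the factors as a description only, since the points share libraries and phases. CAT8 and HAP4 had a Pearson r of 0.944, ADR1 and CAT8 of 0.916, ADR1 and HAP4 of 0.88, and ADR1 and SIP4 of 0.87. PIP2 was about as close to MIG1 (0.812) as to SIP4 (0.796) and ADR1 (0.785), while RDS2 and HAP4 had -0.105. Among the 5456 other genes with a mean of at least 50 scaled reads, those most like a factor were DLD1 and TPO4 for PIP2 (r = 0.99 each), YNL144C and PCL8 for CAT8 (0.988 and 0.986), AGP2 and HSV2 for ADR1 (0.987 and 0.981) and DSF1 and MAN2 for HAP4 (0.986 and 0.982). DLD1 encodes a mitochondrial D-lactate dehydrogenase and AGP2 a plasma membrane carnitine transporter. For OAF1 they were AZR1 and NPL4 (0.974 and 0.968), for MIG1 QDR3 and TAX4 (0.973 and 0.97), for SIP4 PET130 and YIL089W (0.968 and 0.965) and for RDS2 KCS1 and CDC16 (0.931 and 0.926).

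The last measurement was H3K9ac along these genes in wild type early and late in RB, with 1 library each and no test. PIP2 and MIG1 carried high H3K9ac on the side taken as the gene start, and SIP4 and ADR1 little, although SIP4 and ADR1 had more RNA per length at both times. The deposited signal is given per position bin, whose width and scale are not stated. Which end is the gene start is not stated either. The median of all genes at time point 3 had a local peak of 0.958 at bin 11 but was higher at bin 57 (0.986). The side of bin 11 was taken as the start side because its signal went with RNA level: the 25% of genes with the highest RNA level had a median of 1.19 there and the 25% with the lowest 0.751, against 0.985 and 1.0 at bin 57. Averaged over bins 6 to 16, PIP2 had a signal of 1.91 at time point 3 and 1.85 at time point 4, and MIG1 had 1.71 and 1.74. The median over all genes was 0.912 and 0.83, which put PIP2 at the 97.3 and 96.6 percentile and MIG1 at the 94.7 and 95.2 percentile.

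SIP4 had a start-side H3K9ac of 0.378 and 0.444, at the 1.91 and 6.16 percentile. Its highest values among the bins used were 2.22 at bin 56 and 2.29 at bin 57. Bins after 57 were left out, so bin 57 need not be the end of the gene. ADR1 had 0.569 and 0.572, and HAP4 had 0.776 and 0.82, and both were highest at bin 1, outside the window. RDS2 had 1.05 and 1.06 and was highest at bin 57, whereas OAF1 had 1.15 and 1.02 with its highest values at bins 10 and 11. CAT8 went from 1.06 at time point 3 to 1.28 at time point 4, a difference at the 96.1 percentile of all genes, while its RNA fell by 0.70 ± 0.24 over that step (adjusted p = 0.0248), a call lost without any 1 of the 4 libraries (adjusted p = 0.0709 to 0.107). The other 7 genes differed by -0.128 to 0.0664 between the time points.

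**Figure D4:**
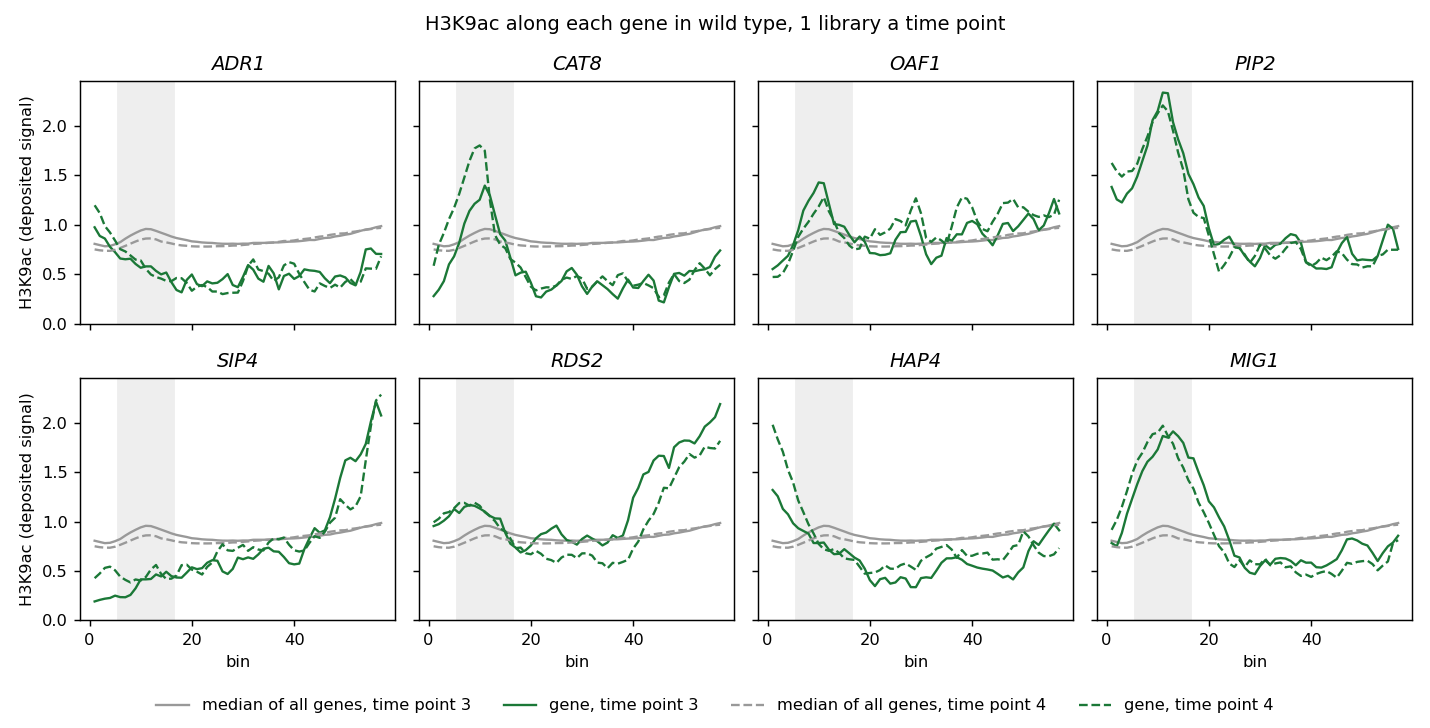
Deposited H3K9ac signal (scale not stated) by position bin for each gene in wild type, solid lines for time point 3 and dashed for time point 4, with the median of all genes in grey and the averaged bins 6 to 16 shaded. PIP2 and MIG1 peak inside the shaded bins near 2, and CAT8 is higher at time point 4 there. Among the bins used, SIP4 and RDS2 are highest at the last ones, bin 56 or 57.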

How the data were processed

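RNA was extracted with a MasterPure kit and sequenced from strand-keeping NEB Ultra Directional libraries, per the labels' protocols. Per the file headers, the authors deposited for each gene and time point a log2 level of each genotype and their own log2 fold change, with an adjusted p-value made by the authors, and 685 of these p-values are missing. The deposited H3K9ac signal per gene and bin is the authors' value of 1 library. The build sacCer3 and the tools MACS2, deepTools, BWA and DESeq2 are listed in the submitters' processing notes. Their roles, the strand setting of the counting and the scale of the signal are not given in the sources used here. From time point 4 of the signal file, bins 1 to 57 were used, because the rows after them were repeated or broken.

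A deposited level, made linear and multiplied by gene length, is the sum of whole reads of the 2 libraries, each times its own step. Solving for these reads, within 1.15 times the rounding, gave whole values at the RefSeq length for 5438 of 5747 genes, against 1.061% with lengths shuffled between genes, and 534 more genes were solved at a searched length. On simulated levels with 10 randomly drawn pairs of steps, 99.7 to 100% of 4775 to 4941 genes had a single solution. For a pair chosen by hand it was 85.7% of 4852 genes. In every case 100% of the single solutions returned the true reads. The solution carries no library letter, so libraries are called 1 and 2 within each group. A group with several solutions entered only as its mean. Log2(scaled reads + 1) was fitted in limma 3.58.1 (R 4.3.3) with trend, all 20 libraries in 1 fit of 10 groups, 10 residual and 6.06 prior degrees of freedom, 5956 genes and no filter. Calls are two-sided at a Benjamini-Hochberg adjusted p under 0.05 over all genes of a contrast. On simulated data of 5166 genes the fit called 99% of 2-fold and 80% of 1.5-fold changes, and 6.77% of its calls were false. The simulation gave all libraries the same spread and changed few genes, in a single comparison. These rates do not carry over to comparisons with time point 1, whose pairs were less alike. The depth of a library bounds the precision through counting error: the lowest value of the 8 genes was 57 reads, for CAT8.

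The 8 genes, the 7 other lists and the tests were chosen with earlier results of these data known, and no list is independent support. The 8 genes were always named. Of each other list the text names the 2 called genes with the largest mean genotype difference and the 2 with the largest wild-type change from time point 2 to 3, and for likeness the 2 genes with the highest Pearson r. Alternatives were another pseudocount, a filter on low reads, upper-quartile scaling, genes with single solutions, each library or time point 1 left out, and, chosen after seeing the data, weights per group.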

Additional observations from a re-analysis of the deposited data

Results flagged for a closer look

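SIP4 was flagged because its genotype difference itself varied between time points, with an adjusted p of 0.000251 in the F test of the interaction. That test called 47.9% of all genes. The difference, mutant minus wild type, changed by -0.997 (log2) from time point 2 to 3, as SIP4 rose by 2.98 ± 0.14 in wild type and by 1.98 ± 0.14 in the mutant. It changed by 0.86 from time point 5 to 1, as SIP4 changed by -3.17 ± 0.14 in wild type and by -2.31 ± 0.14 in the mutant. Of all genes, 27.9% and 13.8% were called for these differences of change. SIP4 at time points 1 and 2 held 164 to 318 scaled reads in the wild-type libraries and 466 to 681 in the mutant. The genotypes overlapped at time point 3. The genotype difference of MIG1 also varied between time points, at an adjusted p of 0.047, a call that most alternatives with a library left out did not keep. Groups of 2 libraries are too small to test for an outlying library.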

How the results depend on the processing

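No paired analysis was possible because the deposited levels pool replicates A and B, and the reads recovered from them carry no letter that ties a library of one group to a library of another. The number of the 8 genes called moved by over 1.5 times in these cases, where the cause was not tested. With weights per group (0.321 for wild-type and 0.564 for mutant time point 1, 1.02 to 1.75 elsewhere), 6 changed from time point 4 to 5 in each genotype (66.9% of all genes in wild type, 54.3% in the mutant), 4 differed in change from 2 to 3 (34.2%), 1 from 4 to 5 (31.9%), and 4 varied in their genotype difference (52.8%). Without time point 1, 5 varied. Shares of all genes are not given for that fit or for those with a library left out. Such shifts in count cannot be read as particular to the 8 genes. With a library left out, which also leaves fewer samples, counts ran from 1 to 7 for the wild-type steps 3 to 4 and 4 to 5, 0 to 5 and 1 to 5 for these mutant steps, 3 to 6, 2 to 6 and 1 to 5 between genotypes at time points 1, 3 and 4, and 1 to 6 for the interaction. For genotype differences of change they ran from 0 to 3 (1 to 2), 1 to 4 (2 to 3), 0 to 1 (4 to 5) and 1 to 5 (5 to 1). Signs turned with upper-quartile scaling for PIP2 (0.18) and RDS2 (0.16) from time point 1 to 2 and HAP4 (-0.036) from 2 to 3 in wild type, RDS2 (0.081) from 1 to 2 in the mutant, and, between genotypes, ADR1 at time points 3, 4 and 5 (0.021, 0.062 and 0.020) and CAT8 at 5 (0.047). None of these was called in either fit. ADR1 had a mean difference of -0.012 without time point 1. With a library left out, the wild-type step 1 to 2 ran from -0.33 to 0.23 for PIP2 and from -0.18 to 0.027 for RDS2, and the mutant step 3 to 4 of OAF1 from -0.034 to 0.029. Genotype differences ran from -0.41 to 0.83 for CAT8 at time point 1 and from -0.028 to 0.021 at 5, and for ADR1 from -0.047 to 0.072 at 2, -0.077 to 0.042 at 3 and -0.051 to 0.021 at 4. Upper-quartile scaling shifted the median of all genes by 0.182 and -0.199 in the mutant steps 1 to 2 and 5 to 1. It moved the share of calls that were higher from 45.9% to 59.2% for the wild-type step 1 to 2, from 48.1% to 59.1% for the mutant one, and from 54.3% to 65.4% and 49.5% to 62.1% between genotypes at time points 4 and 5. For genotype differences of change, that share went from 37.1% to 21.9% (1 to 2) and from 41.6% to 55.7% (3 to 4). A pseudocount of 8, the filter on low reads and the restriction to single solutions moved no count of the 8 genes by over 1.5 times. With 5 bins in place of 11, the H3K9ac at time points 3 and 4 was 0.572 and 0.562 for ADR1, 1.25 and 1.49 for CAT8, 1.28 and 1.15 for OAF1, 2.18 and 2.10 for PIP2, 0.408 and 0.467 for SIP4, 1.10 and 1.10 for RDS2, 0.748 and 0.760 for HAP4, and 1.80 and 1.88 for MIG1.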
